A study of Mus musculus with 20 samples.

Results

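The genes described here encode the phase 2 conjugation enzymes of the mouse liver: UDP-glucuronosyltransferases (UGTs), glutathione S-transferases (GSTs) and cytosolic sulfotransferases (SULTs). Members were chosen by name, as genes named like the Ugt1, Ugt2, Ugt3, Gst and Sult genes, and by a total of at least 200 reads over the 20 libraries, so their measured abundance entered the choice. Of 64 genes that matched by name, 51 reached that total, and they comprised 16 UGT, 20 GST and 15 SULT genes among 55421 genes in the count table. The members just inside the limit were Ugt1a10 with 234 reads, Sult2a4 with 239, Sult1e1 with 269 and Ugt1a7c with 274. Without the reads of 1 of the 4 groups, these 4 genes would fall below the limit (Sult2a4 has 119 reads and Sult1e1 111 outside Rosa26 6 months), so a higher level in that group is partly fixed by the choice. The genes just outside it were Sult4a1 with 97 reads and Gsto2 with 67. All 51 members passed the filter for testing, which kept 22867 genes. That filter asked for only 10 reads in all, so the shares of all tested genes given below are not matched to the members for abundance.

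Phase 2 enzymes attach a polar group to foreign compounds, hormones, bile acids and bilirubin, so that the product dissolves in water and can be exported into bile or urine. UGTs, which sit in the endoplasmic reticulum, transfer glucuronic acid. GSTs couple reactive electrophiles to glutathione, and SULTs transfer sulfate from the activated donor PAPS to phenols, steroids, bile acids and amines. Many of these genes are highest in hepatocytes, and in mice several SULT2A genes and Sult3a1 are known as female-predominant while Gstp1 is known as male-predominant.

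The libraries were poly(A) RNA-seq of whole liver from wildtype mice in 4 groups of 5. All mice received a viral vector into the retro-orbital sinus at 6 months of age, AAV8-Tbg-saCas9/U6-sgRNA, in which the hepatocyte-specific Tbg promoter drives the nuclease saCas9 and the U6 promoter a guide RNA. The control guide cuts the Rosa26 locus, and the other guide cuts Hira, the gene of a histone chaperone. Livers were taken 3 weeks after injection (the groups Rosa26 3 weeks and HIRA 3 weeks) or 6 months after it (Rosa26 6 months and HIRA 6 months). The comparisons address how the loss of the chaperone from hepatocytes acts on the transcriptome early and late. Every mouse thus carried the vector and the nuclease, cells other than hepatocytes were not the target of the Tbg promoter, and a level in whole liver cannot tell fewer hepatocytes from less RNA per hepatocyte.

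The libraries held 19916430 to 24079736 counted reads, of which the members took 0.702% to 1.18%. The 5 hepatocyte markers (Alb among them) had a summed level of 78770 to 157000 CPM (reads of a gene scaled to the library's total). The marker list of any other cell type summed to at most 1000 CPM. The titles label every mouse female, as does a figure caption of the study for these times, whereas 1 sentence of its text speaks of male mice. In HIRA 6 months replicate 5, sex-linked counts went against the label: the X-inactivation transcript Xist stood at 0.457 CPM against 291 to 391 CPM in the other 19 libraries, and the Y-linked Ddx3y at 26.8 CPM against 0 to 0.083 CPM. The library labelled HIRA 6 months replicate 5 was kept in the main fit, and the 6-month members are also given without it. The Hira transcript itself differed by -0.48 ± 0.14 (log2 fold change ± SE, edgeR) at 3 weeks (adjusted p = 0.197) and by -0.10 ± 0.14 at 6 months (adjusted p = 0.794), and a guide that cuts DNA need not lower the transcript.

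Near-identical genes limit what a read count can say about some members, and the clearest case was the pair Gstp1 and Gstp2. These GST pi genes lie side by side on chr19:4035407-4037985 and chr19:4040285-4046023 (GRCm38), and their coding sequences were identical at 618 of 630 bases (98.1%). The first 90 coding bases, on the minus strand between chr19:4037344-4037863 for Gstp1 and between chr19:4041638-4042165 for Gstp2 with introns removed, are shown because 6 of the 12 differences fall there. Capitals mark the bases that differ.
Gstp1: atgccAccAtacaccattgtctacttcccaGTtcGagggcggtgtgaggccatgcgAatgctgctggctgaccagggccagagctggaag
Gstp2: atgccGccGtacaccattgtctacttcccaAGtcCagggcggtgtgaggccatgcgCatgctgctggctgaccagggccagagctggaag
The other 6 differences are spread over the rest of the coding sequence, which leaves long stretches that are the same in both genes. Of all 50-base windows in its exons, Gstp2 had 45.7% found in no other gene, and Gstp1 had 66.3%.

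The SULT2A genes, which sulfate steroids and bile acids, form a cluster of 7 members between chr7:13623967 and chr7:14494230. A stretch of 60 coding bases, positions 212 to 271 of 855, is shown for 4 of them, because it holds 12 of the 93 positions at which they vary. Capitals mark those positions. The stretch lies at chr7:13836035-13836094 (minus strand) in Sult2a1, chr7:14121659-14121718 (minus) in Sult2a3, chr7:13988271-13988330 (minus) in Sult2a4 and chr7:13625312-13625371 (plus) in Sult2a5.
Sult2a1: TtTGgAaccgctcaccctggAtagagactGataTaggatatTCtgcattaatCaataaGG
Sult2a3: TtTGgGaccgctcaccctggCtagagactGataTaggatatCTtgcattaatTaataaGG
Sult2a4: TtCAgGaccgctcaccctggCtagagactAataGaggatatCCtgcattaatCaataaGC
Sult2a5: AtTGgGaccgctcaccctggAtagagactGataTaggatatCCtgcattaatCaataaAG
These genes differ more often than the GST pi pair, with a coding identity of 94.9% between Sult2a1 and Sult2a5 and of 94.4% between Sult2a3 and Sult2a4. Sult2a2 had 37.9% of its windows found in no other gene.

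Over the 51 members the median share of windows found in no other gene was 93.8%, with 31 members over 90% and 10 under 50%. The lowest shares were 9.5% for Gsta1, which shared 75.7% of its windows with Gm3776, and 20.2% for Ugt1a6b. The 7 UGT1A members on chr1:88055388-88220002 share their last exons, since each has its own first exon spliced to a common end. Gsta4, Gstp3, Gstm4 and Gstt1 had 100% of windows found in no other gene. Strand use in the counting was not given in the sources used here. On the opposite strand, Gstm5 overlaps 4933431E20Rik, a gene with 2452 reads in all, so reads of that pair may not be told apart.

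Levels of different genes were compared per length, as CPM per kilobase of exon averaged over the 10 Rosa26 libraries. Gstm1, the abundant mu-class GST of mouse liver, had the highest level per length at 1078. Next in order over these 10 libraries came Sult2a2 with 406.2, Sult1a1, the phenol sulfotransferase, with 359.7, Sult2a1 with 333.5 and Gsta3, the leading alpha-class GST, with 332.2. The place of the SULT2A genes differed by time, since Sult2a2 averaged 240.9 over the 5 libraries of Rosa26 3 weeks, below Sult1a1 (348.7) and Gsta3 (320), and 571.4 over those of Rosa26 6 months, above both (370.7 and 344.4). In the UGTs, Ugt2b36 led the UGT2 genes at 250.9, Ugt3a2, which uses other sugars than glucuronic acid, led UGT3 at 121, and Ugt1a1, the bilirubin UGT, led UGT1A at 90.9. In the remaining GST classes, Gstt1 of the theta class had 214, Gstz1, the maleylacetoacetate isomerase of tyrosine breakdown, 135.2 and Gstp1 112. Sult3a1, which sulfates amines, led the SULT3 to SULT5 group at 29.6, and the lowest of all members over the 10 libraries was Ugt1a7c at 0.152. At 3 weeks Sult1e1 (0.0767) and Sult2a4 (0.1235) stood below Ugt1a7c (0.1483).

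**Figure D1:**
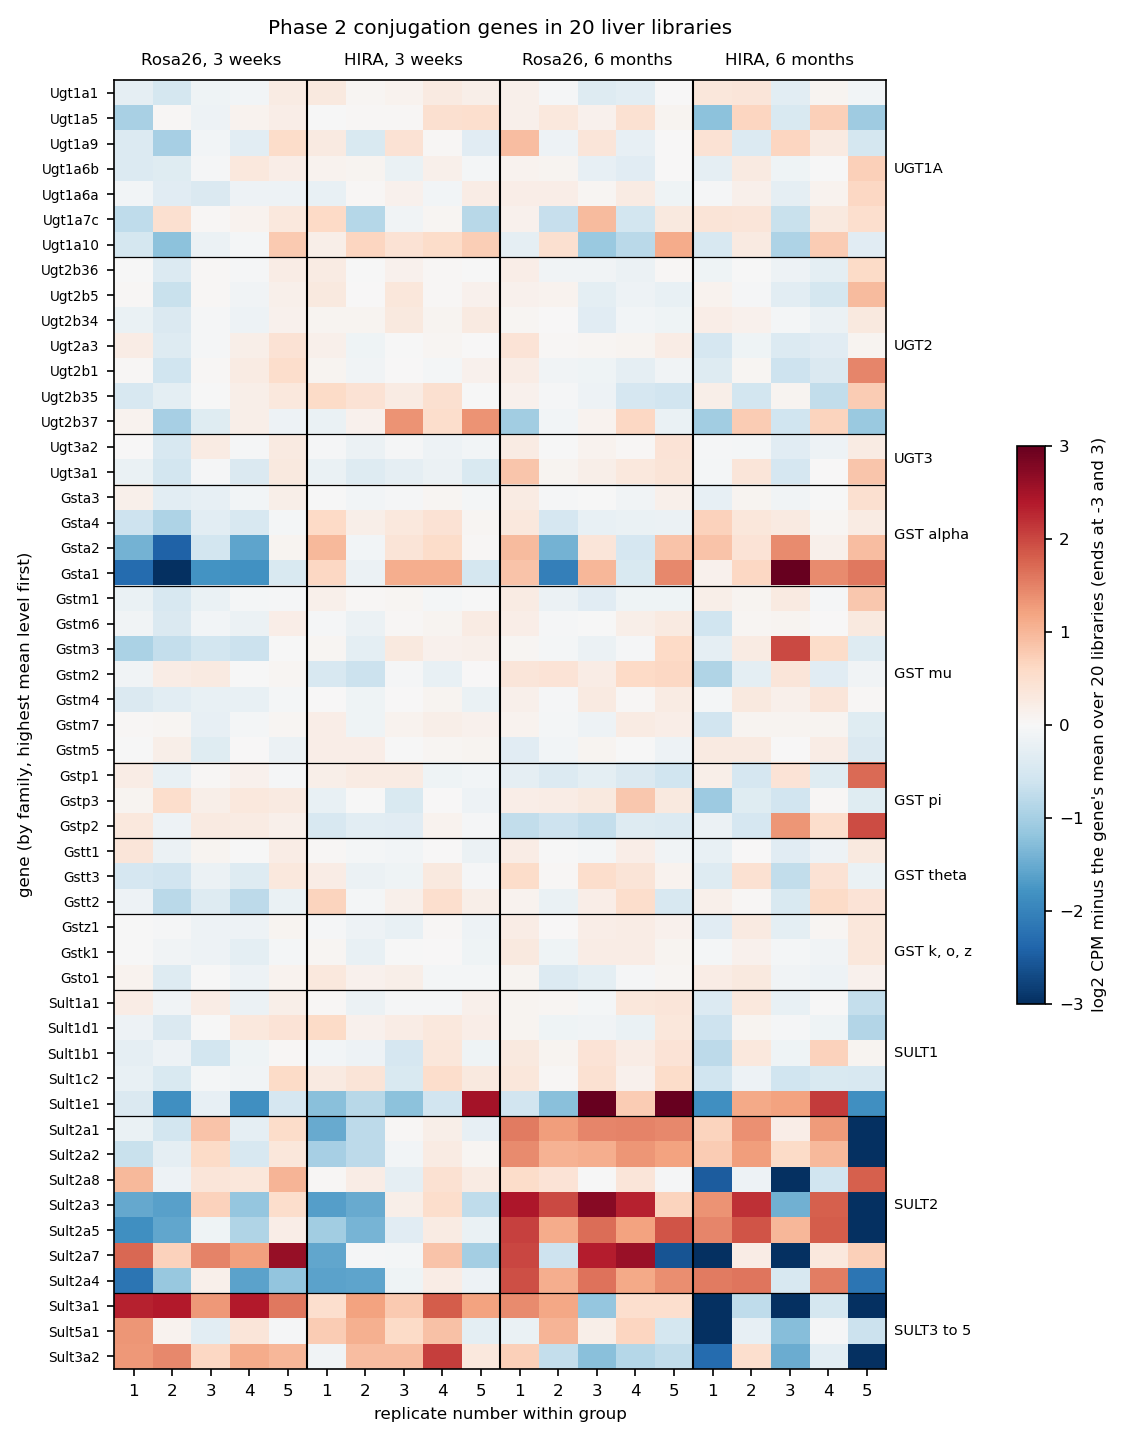
Log2 CPM of each of the 51 members minus that gene's mean over the 20 libraries (colour, with ends at -3 and 3), with genes in rows by family and the 5 replicates of each group in columns. The rows of Sult2a1 to Sult2a5 are redder in the Rosa26 6-month than in the Rosa26 3-week columns, and HIRA 6 months replicate 5 is dark blue in most of them.

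In the picture of all members by library, most UGT and GST rows were pale, and the SULT2 and SULT3 rows carried the strongest colours. Replicate 2 of Rosa26 3 weeks was the lowest of the 20 libraries for 15 members and also had the lowest share of reads in members, 0.702%. By class, GST transcripts took 0.414% to 0.736% of library reads and UGT transcripts 0.18% to 0.344%. SULT transcripts took 0.108% to 0.176% in Rosa26 3 weeks, 0.112% to 0.153% in HIRA 3 weeks, 0.184% to 0.22% in Rosa26 6 months and 0.0948% to 0.195% in HIRA 6 months.

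At 3 weeks, the Hira guide was accompanied by a higher level of Gsta4, the GST that conjugates the lipid aldehyde hydroxynonenal, and no other member was called. Across all tested genes 0.197% were called at an adjusted p under 0.05 (45 of 22867), and 1 of 51 members was. No member was also past an absolute log2 fold change of 1, where 0.114% of all genes were. Of the members, 33 had a log2 fold change above 0 and 18 below it, with a median of 0.142 against -0.006 over all tested genes. Without Ugt1a10, which falls below the limit for members when either group is left out, 32 were above 0 and 18 below (median 0.133). Groups did not overlap for 3 members, Gsta4 and Gstt2 (higher) and Gstp3 (lower), where 2.69% of all tested genes had groups without overlap.

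Gsta4 lies at chr9:78182774-78209349 beside Gsta1 and Gsta2. It stood at 51, 41.4, 63.4, 56.2 and 75.3 CPM in Rosa26 3 weeks and at 120, 89.2, 98.6, 107 and 81.5 CPM in HIRA 3 weeks. Each of the HIRA libraries was above each of the Rosa26 libraries. The log2 fold change was 0.79 ± 0.16 (SE, n = 5 per group; edgeR adjusted p = 0.0423), and without HIRA 6 months replicate 5, which is in neither group compared, the adjusted p was 0.0331 where 0.454% of all genes were called. The call was lost (adjusted p up to 0.128, log2 fold change 0.69 to 0.91) on leaving out any one of the 3-week libraries other than Rosa26 replicate 5, or replicate 4 of Rosa26 6 months or replicate 2 of HIRA 6 months. It was also lost on the FPKM values with limma (0.80, adjusted p = 0.0678).

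The other GST alpha members had positive estimates at 3 weeks, none of them called. Gsta2, an alpha-class enzyme that also reduces lipid hydroperoxides, stood at 11.8, 5.84, 21.9, 10.6 and 33.5 CPM in Rosa26 3 weeks and at 62.7, 29.9, 41.9, 47 and 32.5 CPM in HIRA 3 weeks (log2 fold change 1.35 ± 0.42, adjusted p = 0.238). The groups overlapped through Rosa26 replicate 5. Gsta1, whose exon windows are mostly shared with other genes, stood at 0 to 0.605 CPM in Rosa26 3 weeks and at 0.573 to 1.94 CPM in HIRA 3 weeks (log2 fold change 2.57 ± 0.77, adjusted p = 0.22). Gsta3, the most abundant alpha member, stood at 1163 to 1612 CPM and 1360 to 1501 CPM. Over the 4 GST alpha members the median log2 fold change was 1.07.

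Gstt2, a theta-class GST, stood at 71.4, 45.1, 60.5, 45.8 and 69 CPM in Rosa26 3 weeks and at 126, 76.2, 87.3, 112 and 89 CPM in HIRA 3 weeks. Groups did not overlap, yet the test did not pass (log2 fold change 0.75 ± 0.20, adjusted p = 0.151). Ugt2b34, a UGT2B gene, had the next smallest p among members with a positive estimate, at 0.29 ± 0.11 (adjusted p = 0.419). Among members with a negative estimate the smallest p-values were those of Gstp3 (-0.44 ± 0.16, adjusted p = 0.364), Sult2a7 (-1.83 ± 0.84, adjusted p = 0.533), Gstm2 (-0.34 ± 0.17, adjusted p = 0.576), Sult3a1 (-0.89 ± 0.59, adjusted p = 0.746) and Gstt1 (-0.16 ± 0.12, adjusted p = 0.761). None of the 16 UGT and 15 SULT members was called at 3 weeks. Their families were split, with 6 of 7 UGT1A, 5 of 7 UGT2, 0 of 2 UGT3, 4 of 5 SULT1, 2 of 7 SULT2 and 1 of 3 SULT3 to SULT5 members above 0.

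**Figure D2:**
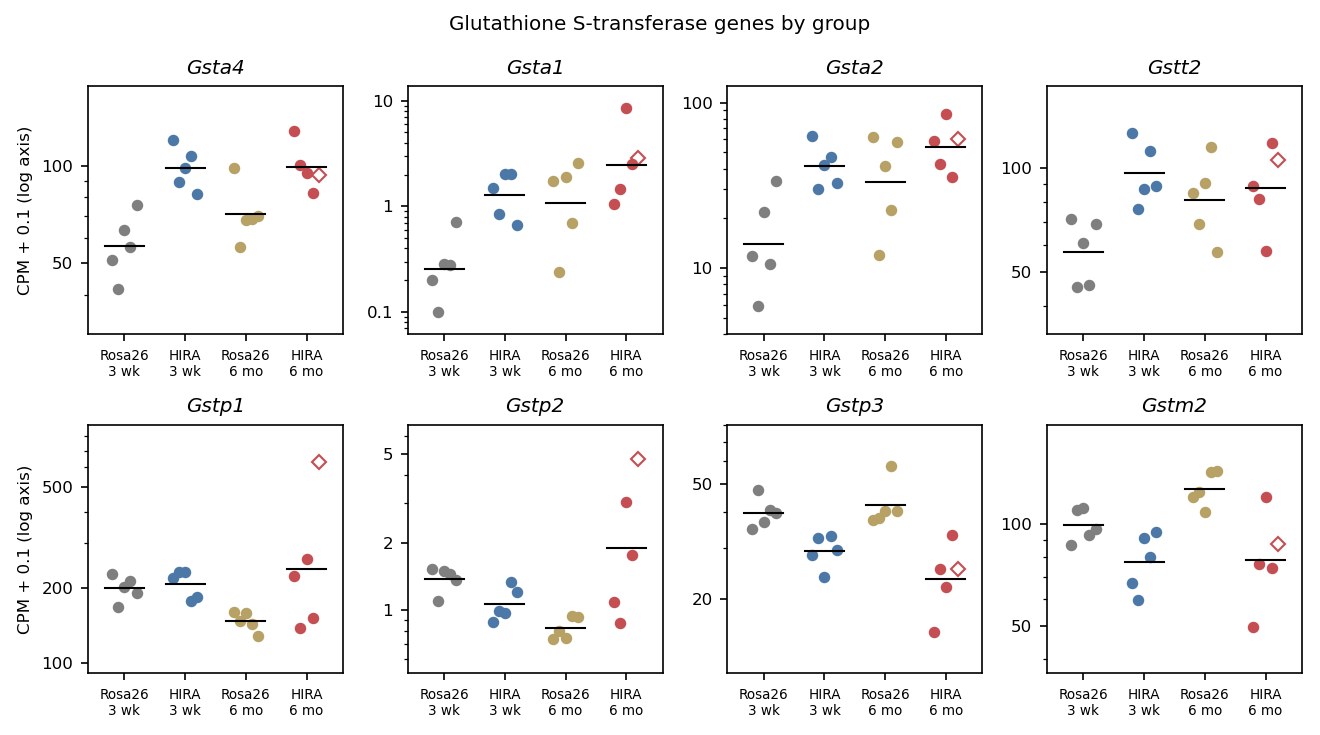
CPM plus 0.1 (log axis) of 8 GST genes in the 4 groups of 5 libraries; each point is a library, bars are geometric means, and the open diamond is HIRA 6 months replicate 5. At 3 weeks Gsta4 stands at 81.5 to 120 CPM in HIRA above 41.4 to 75.3 CPM in Rosa26, and at 6 months Gstp3 stands at 15.2 to 33.2 CPM in HIRA below 37.5 to 57.6 CPM in Rosa26.

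Clock-controlled genes moved with the same 3-week contrast, and their part in the GST values was not tested. Of 16 clock and PAR bZIP genes, 5 were called higher at 3 weeks, namely Dbp (4.55), Nr1d2 (1.19), Ciart (3.62), Tef (1.46) and Per3 (2.56, log2 fold changes). Dbp, a PAR bZIP factor with a strong daily rhythm in liver, stood at 1.52 to 3.54 CPM in Rosa26 3 weeks, 9.05 to 104 CPM in HIRA 3 weeks, 18.1 to 95.1 CPM in Rosa26 6 months and 3.77 to 115 CPM in HIRA 6 months. Rosa26 3 weeks was thus the group apart, and 5 of the 16 were also called between the Rosa26 times, while none was between the arms at 6 months. Gsta4, the member called at 3 weeks, had a mean of 57.5 CPM in Rosa26 3 weeks and of 72.1 to 99.8 CPM in the other groups. Gstt2 had means of 58.4 against 83.3 to 98.2 CPM. Those of Gsta2 and Gsta1 were 16.7 and 0.214 CPM in Rosa26 3 weeks and 39 to 56.1 and 1.31 to 3.17 CPM in the other groups. These members had the smallest p-values among positive 3-week estimates, so a low Rosa26 3-week mean is partly fixed by that choice. Their values are a description and were not compared with the clock genes by a test.

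At 6 months, the Hira guide was accompanied by a lower level of Gstp3 and Sult1c2 and a higher level of Gstp2. Over all tested genes 1.31% were called (299 of 22867), and 3 of 51 members were, 1 of them, Gstp2, also past a log2 fold change of 1, where 0.332% of all genes were past both. With the stricter filter filterByExpr, 3.05% of all genes kept were called (458 of 15008), and 5 members were. Members had 21 estimates above 0 and 30 below, with a median of -0.127 against 0.029 over all tested genes. Of the 47 members that reach the limit without either of these groups, 20 were above 0 and 27 below, with a median of -0.125. Without replicate 5 of HIRA 6 months, 1.74% of all genes were called, and 2 of 51 members were, Gstp3 and Ugt2a3, both lower. Estimates then stood above 0 for 17 members and below 0 for 34, and for 17 and 30 of those 47. No member was past both thresholds in that fit, where 0.449% of all genes were.

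Gstp3, the third GST pi gene of the cluster (chr19:4057477-4059569), shared no 50-base window with another gene. It stood at 37.5, 37.9, 40.2, 57.6 and 40.4 CPM in Rosa26 6 months and at 15.2, 25.2, 21.8, 33.2 and 25.2 CPM in HIRA 6 months. Every HIRA library was below every Rosa26 library, replicate 5 among them. The log2 fold change was -0.83 ± 0.16 (n = 5 per group, adjusted p = 0.0154) and -0.84 ± 0.17 without replicate 5 (adjusted p = 0.0176). The call was lost on leaving out Rosa26 6 months replicate 4, the highest library (log2 fold change between -0.97 and -0.70 over single omissions, adjusted p up to 0.0605). It was also lost in a fit of only the 6-month groups, on the FPKM values and without HIRA 6 months replicates 3 and 5, with adjusted p-values up to 0.136. The 3-week groups were also without overlap, at 34.8 to 47.5 CPM in Rosa26 and 23.7 to 33 CPM in HIRA.

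Gstp2 was called higher at 6 months in the fit of all 20 libraries, and its neighbour Gstp1 was not called. Gstp2 stood at 0.64, 0.699, 0.645, 0.834 and 0.826 CPM in Rosa26 6 months and at 0.982, 0.774, 2.95, 1.66 and 4.62 CPM in HIRA 6 months. The groups overlapped through HIRA replicate 2, and replicates 5 and 3 were the highest of the HIRA libraries. Its fitted log2 fold change was 1.58 ± 0.36 (adjusted p = 0.0327), and without replicate 5 it was 1.12 ± 0.30 and no longer called (adjusted p = 0.0575). The call was also lost without HIRA replicate 3 or any one of the Rosa26 6-month libraries, with adjusted p-values up to 0.0828. Further losses came with limma-voom, in a fit of only the 6-month groups and without HIRA replicates 3 and 5. The same was so with a replicate block and without replicate 5. In Rosa26 6 months Gstp2 had 15 to 18 reads per library, against 2801 to 3754 for Gstp1. On the authors' FPKM values, tested with limma on the log2(FPKM + 1) scale, the Gstp2 difference was 0.74 (adjusted p = 0.271).

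Gstp1, the main pi-class GST, stood at 160, 147, 158, 144 and 128 CPM in Rosa26 6 months and at 222, 138, 259, 151 and 628 CPM in HIRA 6 months. Replicate 5 was the highest of all 20 libraries, and the rest overlapped. This gave a log2 fold change of 0.92 ± 0.27 (adjusted p = 0.0963) and 0.38 ± 0.15 without replicate 5 (adjusted p = 0.179). Differences between the 3 GST pi genes in their response were not tested. Their promoters are given because the genes are neighbours on 1 strand and 2 of them were called.

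The sequences are the 250 bases upstream of each RefSeq start (GRCm38.p6, minus strand), at chr19:4037913-4038162 for Gstp1, chr19:4042222-4042471 for Gstp2 and chr19:4059448-4059697 for Gstp3, with matches to GCGTG, the core of the AhR response element, in capitals.
Gstp1: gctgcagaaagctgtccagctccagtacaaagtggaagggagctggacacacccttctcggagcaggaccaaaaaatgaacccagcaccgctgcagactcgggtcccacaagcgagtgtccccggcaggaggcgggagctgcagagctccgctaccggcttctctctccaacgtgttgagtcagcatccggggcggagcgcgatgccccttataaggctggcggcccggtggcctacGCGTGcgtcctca
Gstp2: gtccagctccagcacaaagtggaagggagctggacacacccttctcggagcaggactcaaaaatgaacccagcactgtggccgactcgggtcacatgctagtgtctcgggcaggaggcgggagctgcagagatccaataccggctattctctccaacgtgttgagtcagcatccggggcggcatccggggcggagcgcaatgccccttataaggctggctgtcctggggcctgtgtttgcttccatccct
Gstp3: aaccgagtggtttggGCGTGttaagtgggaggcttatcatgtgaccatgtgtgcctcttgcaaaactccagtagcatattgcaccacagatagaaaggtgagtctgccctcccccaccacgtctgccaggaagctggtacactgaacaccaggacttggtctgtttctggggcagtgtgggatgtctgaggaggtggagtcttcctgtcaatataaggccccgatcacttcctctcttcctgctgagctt
The Gstp1 and Gstp2 windows were 77.1% identical. GCGTG, searched on both strands of 300-base windows from 250 before to 50 after the start, was found for 9 of 44 members with a promoter entry and in 32.4% of all 32851 promoters. TGACNNNGC, the antioxidant response element core, was found for 3 members (Gsta3, Gstm5 and Gstm7) and in 12.4% of all promoters. TTATGNAA, a D-box of PAR bZIP factors, was found for 4 (Gstt1, Ugt1a10, Ugt1a9 and Ugt2b1) and in 3.38%, and TTCNNNGAA, the STAT5 motif, for 4 (Gsta1, Gstm6, Sult3a1 and Ugt1a6a) and in 8.3%. Such matches are letters in a window and were not read as binding sites. No promoter entry was matched for Gsta4, Gstt2, Sult2a1, Sult2a2, Sult2a7, Ugt1a6b and Ugt3a2.

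Sult1c2, a SULT1 gene (chr17:53829637-53846339), stood at 10.4, 8.44, 11.2, 8.94 and 12.1 CPM in Rosa26 6 months and at 5.38, 7.42, 5.39, 5.91 and 5.89 CPM in HIRA 6 months. All HIRA libraries were below all Rosa26 libraries. The log2 fold change was -0.77 ± 0.18 (adjusted p = 0.041), and without replicate 5 it was -0.76 ± 0.20 (adjusted p = 0.0543). At 3 weeks Sult1c2 overlapped, at 5.99 to 12.3 CPM in Rosa26 and 5.95 to 11.8 CPM in HIRA. The call was lost on leaving out replicate 1, 3, 4 or 5 of either 6-month group, replicate 3 or 4 of Rosa26 3 weeks, or replicate 1 or 5 of HIRA 3 weeks (adjusted p up to 0.0935). It was also lost on the FPKM values with limma (adjusted p = 0.0947), in a fit of only the 6-month groups (0.0949), without HIRA 6 months replicates 3 and 5 (0.139) or 1 and 5 (0.13), and with a replicate block and without replicate 5 (0.0689).

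Ugt2a3, a UGT that glucuronidates bile acids (chr5:87324972-87337195), stood at 250, 191, 196, 199 and 218 CPM in Rosa26 6 months and at 131, 170, 141, 148 and 199 CPM in HIRA 6 months. The overlap came from replicate 5 alone. Ugt2a3 differed by -0.42 ± 0.13 on the log2 scale (adjusted p = 0.117) with it and -0.52 ± 0.13 without it (adjusted p = 0.042). At 3 weeks the groups overlapped, at 143 to 251 CPM in Rosa26 and 170 to 208 CPM in HIRA. No other UGT was called at 6 months with or without replicate 5.

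Groups without overlap at 6 months numbered 2 of 51 members (Gstp3 and Sult1c2) where 3.15% of all tested genes had none. Without replicate 5 they numbered 5, all lower in HIRA and adding Ugt2a3, Sult2a8 and Ugt3a2, where 5.71% of all genes had none.

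Gstm2, a mu-class GST, had a value close to the threshold. It stood at 120, 124, 108, 142 and 143 CPM in Rosa26 6 months and at 49.6, 76.2, 120, 74.3 and 87.3 CPM in HIRA 6 months. Replicate 3 of HIRA reached into the Rosa26 range. Gstm2 differed by -0.65 ± 0.17 on the log2 scale (adjusted p = 0.0617) and -0.67 ± 0.18 without replicate 5 (adjusted p = 0.0631). Other members with small p-values and positive estimates were Gsta4 (0.47 ± 0.16, adjusted p = 0.144), Gstm1 (0.39 ± 0.14, adjusted p = 0.169; 0.23 ± 0.11 without replicate 5, adjusted p = 0.307) and Gsta1 (1.25 ± 0.61, adjusted p = 0.331; 1.298 ± 0.64 without it, adjusted p = 0.293). Without replicate 5 the members with the smallest p-values and positive estimates, beside the GST pi genes, were Gsta4 (0.49 ± 0.17, adjusted p = 0.133), Gstm5 (0.28 ± 0.11, adjusted p = 0.16) and Gstm3 (0.79 ± 0.31, adjusted p = 0.18). Gstm3 stood at 363 CPM in HIRA 6 months replicate 3 and at 69.4 to 133 CPM in the other HIRA 6-month libraries.

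All 15 SULT members had estimates below 0 at 6 months, 1 of them called (Sult1c2), where 1.31% of all genes were. Without replicate 5 none was called, where 1.74% of all genes were. For Sult1e1 and Sult2a4, which reached the limit for members through Rosa26 6 months, the direction is partly fixed by that choice, and 13 of 13 others were below 0. The SULT2A genes are neighbours and several share sequence, so the 13 are not independent observations. The median over all tested genes was 0.029, and the share of all genes below 0 is not given here. The medians by family that follow keep Sult1e1 and Sult2a4. The median log2 fold change was -0.331 over 5 SULT1, -0.631 over 7 SULT2 and -1.104 over 3 SULT3 to SULT5 members, and without replicate 5 it was -0.222, -0.485 and -1.14, again with no estimate above 0. The spread within HIRA 6 months was wide for most of the SULT2 and SULT3 members, as the values by library show.

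**Figure D3:**
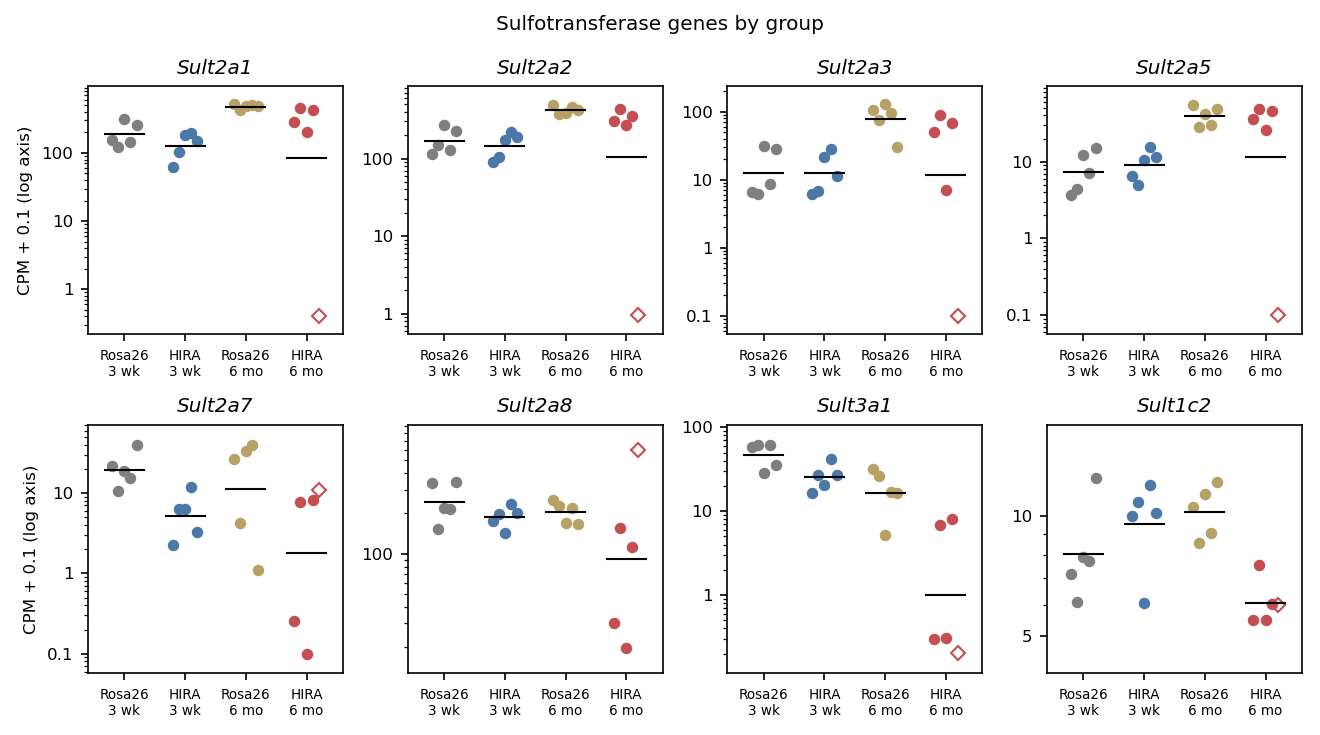
CPM plus 0.1 (log axis) of 8 SULT genes in the 4 groups of 5 libraries; each point is a library, bars are geometric means, and the open diamond is HIRA 6 months replicate 5. Replicate 5 stands at 0 to 0.864 CPM for Sult2a1, Sult2a2, Sult2a3 and Sult2a5 but at 596 CPM, the highest of all, for Sult2a8.

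Sult3a1, the amine sulfotransferase (chr10:33857721-33879532), stood at 31.5, 26.5, 5.16, 16.7 and 16.6 CPM in Rosa26 6 months and at 0.196, 6.83, 0.207, 8.06 and 0.102 CPM in HIRA 6 months. Replicates 1, 3 and 5 of HIRA were near 0, and replicates 2 and 4 lay within the Rosa26 range. The log2 fold change was -2.67 ± 0.68 (adjusted p = 0.0545) and -2.37 ± 0.65 without replicate 5 (adjusted p = 0.0635). Sult2a8, a bile acid sulfotransferase, stood at 251, 227, 170, 220 and 166 CPM in Rosa26 6 months and 30, 154, 19.5, 113 and 596 CPM in HIRA 6 months. Here too replicates 1 and 3 were the lowest HIRA libraries, whereas replicate 5 was the highest of all 20. Its log2 fold change was -0.18 with replicate 5 (adjusted p = 0.92) and -1.39 ± 0.41 without it (adjusted p = 0.0847).

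Sult2a1 and Sult2a2, the main hydroxysteroid sulfotransferases, stood at 422 to 516 and 373 to 484 CPM in Rosa26 6 months. In HIRA 6 months Sult2a1 stood at 283, 458, 203, 430 and 0.305 CPM and Sult2a2 at 308, 434, 269, 357 and 0.864 CPM. The groups overlapped, and replicate 5 lay far below the rest. For Sult2a1 the log2 fold change was -0.81 ± 0.68 with it (adjusted p = 0.625) and -0.49 ± 0.31 without it (adjusted p = 0.432). For Sult2a2 it was -0.63 ± 0.63 with it (adjusted p = 0.696) and -0.31 ± 0.25 without it (adjusted p = 0.565). Sult2a7 stood at 26.6, 4.19, 33.7, 39.8 and 1.01 CPM in Rosa26 6 months and at 0.157, 7.56, 0, 8.11 and 10.7 CPM in HIRA 6 months, a log2 fold change of -2.01 ± 0.84 (adjusted p = 0.248) and of -2.44 ± 0.91 without replicate 5 (adjusted p = 0.165).

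Replicate 5 of HIRA 6 months was above all 19 other libraries for 15 members, below all for 10 and within their range for 26. Sult2a3 and Sult2a5 had no read there, which against a floor of 3 reads (0.152 CPM in that library) was at least 347-fold and at least 257-fold lower than the mean of the other 4 HIRA 6-month libraries. Sult2a8 was 7.52-fold higher than that mean (596 against 79.2 CPM) and Ugt2b1 3.43-fold higher (351 against 102 CPM). Genes known as male-biased in mouse liver stood high in the same library, with Cyp4a12a at 256 CPM against at most 0.213 CPM and Mup20 at 1724 CPM against at most 82.9 CPM elsewhere. Leaving it out moved the 6-month log2 fold change by more than 0.5 for 3 members, Sult2a8 (by 1.21), Ugt2b1 (from 0.31 to -0.26) and Gstp1 (from 0.92 to 0.38).

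**Figure D4:**
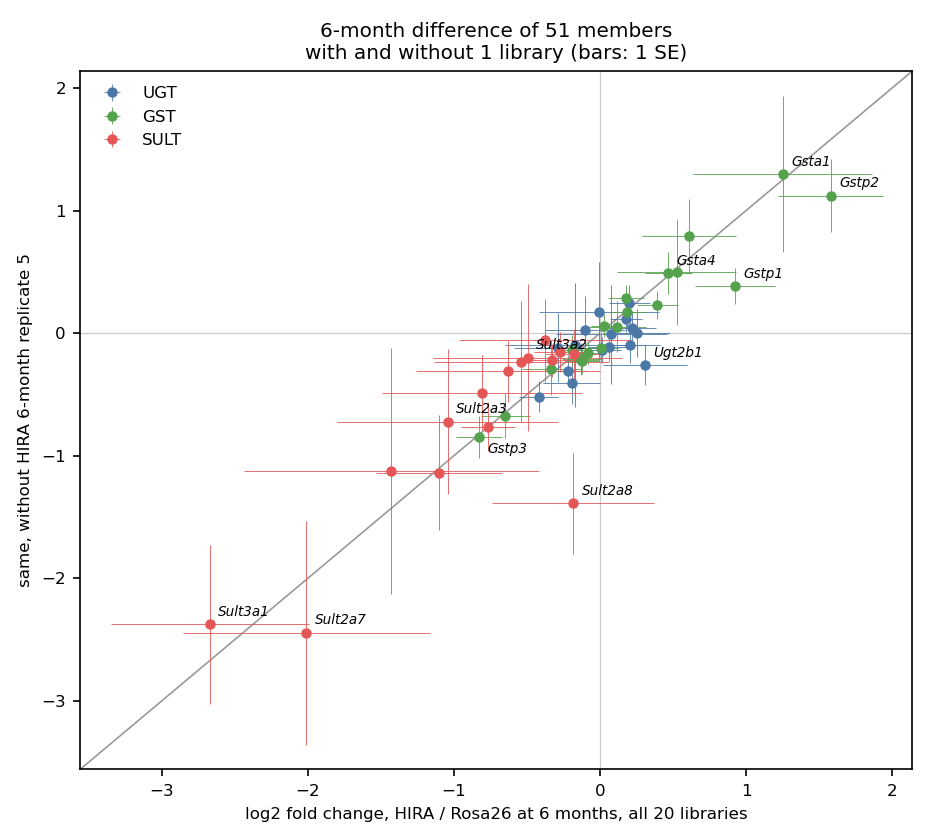
Log2 fold change of HIRA over Rosa26 at 6 months for 51 members, from all 20 libraries (x axis) and without HIRA 6 months replicate 5 (y axis); bars are 1 SE and the diagonal marks equal values. Most members lie near the diagonal, and Sult2a8 lies furthest below it, at -0.18 against -1.39.

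Other libraries of the group also stood apart. HIRA 6 months replicate 1 was the lowest of all 20 libraries for 10 members, and replicate 3 for 5. Replicate 3 had 166 CPM of the collagen transcript Col3a1 against 11.6 to 53.2 CPM elsewhere at 6 months, and its summed level of the 6 stellate cell markers was 733 CPM, where the other groups had 175 to 362 CPM. The 6 stellate markers all had positive estimates at 6 months, none called, with a median of 0.496 (0.635 without replicate 5, none called), and their part in the members' values was not tested. With replicates 3 and 5 both left out, 1 member (Gstm2) and 0.712% of all genes were called at 6 months, and with replicates 1 and 5 both left out, 2 members (Gstp2 and Gstp3) and 0.757% of all genes were.

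The change of the guide effect between 3 weeks and 6 months was tested directly as an interaction. No member and none of the 22867 genes was called (0%), with 1514 genes at an unadjusted p under 0.05, and DESeq2 called no member either. The smallest adjusted p among members was 0.614, shared by Sult1c2 (-1.02 ± 0.26) and Gstp2 (1.97 ± 0.50). Hence the calls made at 1 time and not at the other were not shown to differ between times. Of the members, 6 had an unadjusted p under 0.05 (11.8%, against 6.62% of all genes). That count is over all 51 and keeps Ugt1a10, Sult2a4, Sult1e1 and Ugt1a7c, whose levels by group are partly fixed by the limit for members.

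Among Rosa26 mice, whose 3-week and 6-month libraries also serve as the controls of the guide comparisons, 4 SULT2A members, Sult2a1, Sult2a2, Sult2a3 and Sult2a5, had higher mean levels at the later time. Sult2a5 stood at 3.6, 4.34, 12, 6.99 and 15.1 CPM at 3 weeks and at 54.3, 28.3, 41.8, 30.4 and 48.2 CPM at 6 months. Sult2a1 stood at 155, 121, 319, 146 and 258 CPM and at 516, 422, 487, 498 and 480 CPM. In both genes every 6-month library was above every 3-week library, as it was for Sult2a2, while Sult2a3 missed that only narrowly (30.6 CPM at 6 months against 30.9 CPM at 3 weeks). Sult2a4 had 36 reads over the 10 3-week libraries and 120 in Rosa26 6 months, without which it would not be a member, so its values are a description and support no difference between the times. Of the other SULT2A members, Sult2a8 stood at a mean of 254.5 CPM at 3 weeks and 206.9 CPM at 6 months (log2 fold change -0.30 ± 0.56, adjusted p = 0.882) and Sult2a7 differed by -0.01 ± 0.79 (adjusted p = 0.997).

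With all 20 libraries in the fit no member was called between the Rosa26 times, where 0.324% of all genes were, and of the 48 members that reach the limit without either of these groups, 15 had an unadjusted p under 0.05 (31.2%, against 12.8% of all genes). With HIRA 6 months replicate 5 left out, 0.938% of all genes and 4 of those 48 members were called, all higher and 3 of them past both thresholds (0.366% of all genes): Sult2a5 (2.27 ± 0.34, adjusted p = 0.00746), Sult2a2 (1.25 ± 0.24, adjusted p = 0.0189), Sult2a1 (1.27 ± 0.29, adjusted p = 0.0408) and Gstm4 (0.39 ± 0.09, adjusted p = 0.0462). The Rosa26 libraries compared were the same in both fits, whereas the genes tested (22867 and 22703), the scaling and the estimate of spread shared by the 4 groups were not, and the SE of Sult2a1 was 0.69 and 0.29. Sult2a3 came to 2.44 ± 0.59 (adjusted p = 0.0506). Groups did not overlap for 5 of the 48 that were higher and 2 that were lower (Gstp1 and Gstp2), where 3.51% of all genes had none.

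Between the HIRA times no member was called, where 0.0656% of all genes were. Of the 48 members that reach the limit without either of these groups, 9 had an unadjusted p under 0.05 (18.8%, against 8.95% of all genes). The smallest adjusted p was that of Sult3a1 (-3.13 ± 0.68, adjusted p = 0.105). Without replicate 5, 0.123% of all genes and 1 member were called, Sult2a5, at 6.31, 4.91, 10.3, 15.5 and 11.4 CPM at 3 weeks and 35.9, 48.3, 26.1 and 46 CPM at 6 months (2.01 ± 0.35, adjusted p = 0.0222). The 6-month libraries were thus all above the 3-week libraries in this arm as in the Rosa26 arm. Age and time since injection cannot be told apart in the comparison of times.

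The genes that work beside the members were read against the 0.197% of all genes called at 3 weeks and the 1.31% called at 6 months. Of 23 genes for cofactor supply and other conjugation reactions, none was called at either time, and 1 of them, Slc35d1, a transporter of UDP-sugars, was called higher at 3 weeks without replicate 5 (0.36, adjusted p = 0.0374). Of 21 phase 1, deconjugation and export genes, 1 was called at 6 months, Cyp3a11, the main CYP3A enzyme, at 1356 to 2049 CPM in Rosa26 and 2587 to 4791 CPM in HIRA (1.02 ± 0.17, adjusted p = 0.0138; 1.02 ± 0.18 without replicate 5, adjusted p = 0.00985). Of 27 regulators, 1 was called at 6 months, the oestrogen receptor Esr1, at 36.7 to 57.5 CPM in Rosa26 and 12.6 to 33.7 CPM in HIRA (-0.96 ± 0.20, adjusted p = 0.0236; -0.79 without replicate 5, adjusted p = 0.0206). Without replicate 5, Gusb, the beta-glucuronidase that removes glucuronic acid, was also called higher (0.34, adjusted p = 0.0396) and Bcl6, a repressor of female-biased genes, lower (-1.18, adjusted p = 0.0492), and at 3 weeks Stat5a was called lower (-0.66, adjusted p = 0.0414).

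Marker genes were examined for 3 regulators that induce phase 2 enzymes. None of 7 NRF2, 4 CAR and 6 AhR marker genes was called at 3 weeks or 6 months, and 4 of 4 CAR markers were above 0 at 6 months (median 0.235). Of 9 female-biased genes none was called, with 8 below 0 at 6 months and 7 without replicate 5. Of 8 male-biased genes 4 were called higher at 6 months and 1, Mup20, without replicate 5 (1.19, adjusted p = 0.0383), while Cyp2d9 was called higher at 3 weeks in that fit (1.32, adjusted p = 0.0245). Of 5 sex-linked genes, 1 was called at 6 months, Eif2s3y, and none without replicate 5. Of 10 hepatocyte genes, 1 was called lower at 6 months, the asialoglycoprotein receptor gene Asgr1 (-0.34, adjusted p = 0.047; -0.36 without replicate 5, adjusted p = 0.0416). No marker of cholangiocytes, Kupffer cells, endothelial cells or lymphocytes was called. All 5 endothelial markers had positive estimates at 6 months (median 0.323, and 0.432 without replicate 5). Their summed level was 175.8 to 232.2 CPM in Rosa26 3 weeks and 108.5 to 176.4 CPM in Rosa26 6 months. The part of these markers in the members' values was not tested. Of the 4 gut and pancreas markers, Prss1 was at 0 in all libraries and Cpa1 at no more than 0.0499 CPM, while Vil1 was called higher in the fit without replicate 5 at 3 weeks (1.63, adjusted p = 0.0378) and 6 months (1.48, adjusted p = 0.045). Fabp2, which held most of that list's summed level at 24.2 to 86.7 CPM, had estimates below 0 in the main fit at 3 weeks (-0.35, adjusted p = 0.762) and 6 months (-0.38, adjusted p = 0.502).

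The authors' FPKM table ranked some members differently from the counts. The ratio of FPKM to CPM per kilobase, both averaged over the 10 Rosa26 libraries, had a median of 1.44 over the members, and 3 members lay more than 5 times above it. In the other direction, the FPKM cells of Sult5a1 were blank in all 20 libraries although its reads numbered 4319 (2.47 CPM per kilobase), and blank cells were read as 0. The members above were Gstp2 (FPKM 128 against 0.903 CPM per kilobase), Ugt1a7c (19.4 against 0.152) and Gsta1 (7.66 against 0.807). All 3 have under 50% of windows found in no other gene. They are 3 of the 10 members under 50%, and the ratios of the other 7 ran from 1.36 to 7.17. Among the members Gstp2 ranked 46th from counts per length and 14th from FPKM, and the part of read assignment in this was not tested.

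**Figure D5:**
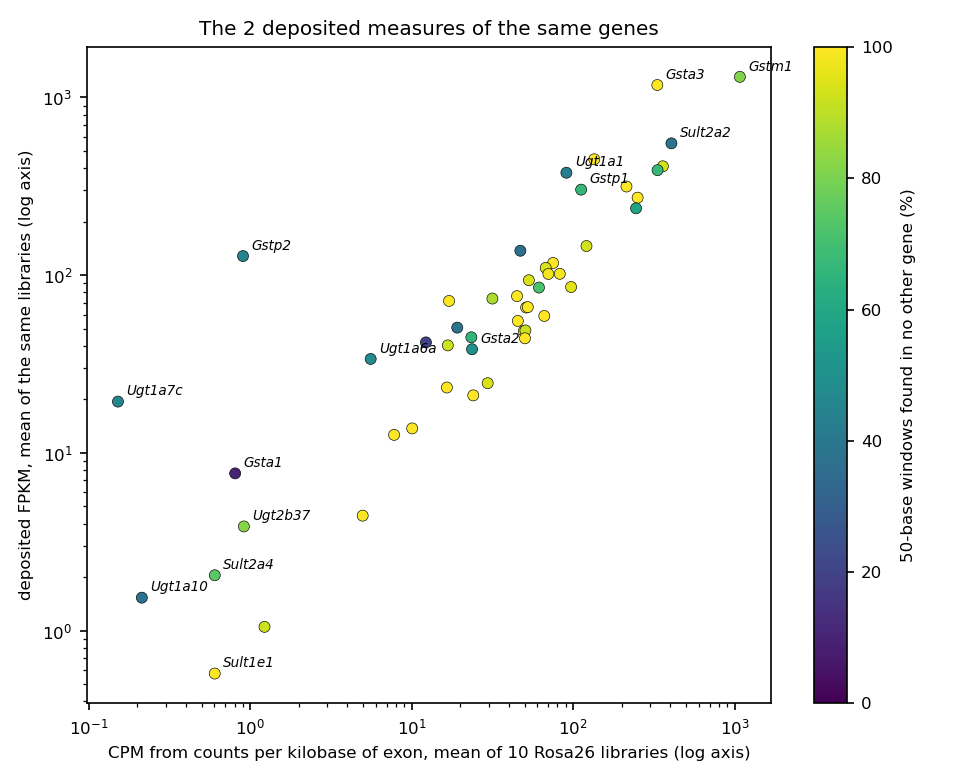
Authors' FPKM (y axis) against CPM per kilobase of exon from the counts (x axis), both log axes and both means of the 10 Rosa26 libraries, with 1 point for each of 50 members (Sult5a1, blank in the FPKM table, is not drawn); colour is the percent of 50-base windows found in no other gene. Gstp2, Ugt1a7c and Gsta1 stand above the band of the other members and have dark colours.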

How the data were processed

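Livers of 20 mice were profiled by poly(A) RNA-seq, and the authors deposited a table of raw read counts per gene and a table of FPKM per gene. The study's methods name STAR, the build mm10 and HOMER for counting, and the submitters' processing notes name STAR, HTSeq and Cufflinks without a role, so the counter is uncertain. The deposited counts were used as given. Genes with fewer than 10 reads in all were left out, and edgeR 4.0.16 (R 4.3.3, TMM scaling, quasi-likelihood test) was fitted to all 4 groups together, with Benjamini-Hochberg adjustment over all genes tested. A call is an adjusted p under 0.05, as in the study, whose fold threshold (log2 fold change of 1) is given beside it. SE is the standard error of the log2 fold change. CPM are TMM-scaled counts relative to library size. The labels number replicates without an animal identifier, so p-values measure the spread between these libraries. The deposited FPKM, normalized by the authors, were tested with limma 3.58.1 on log2(FPKM + 1), and 27 of 1020 member values were blank and read as 0. Other settings were DESeq2 1.42.0, limma-voom, other filters and scalings, a replicate block and leaving out libraries. The tests were checked on simulated counts.

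Groups came from the sample labels, with 5 libraries each and 19916430 to 24079736 counted reads per library. Nothing beyond the labels says how replicates were housed or batched. Over 30 pairs of same-numbered libraries of different groups, deviations from the group means correlated between -0.309 and 0.335, and 14 pairs were over 0.1. No differently numbered pairs are given for reference, so these values cannot tell whether replicate numbers pair libraries. The members and gene lists were chosen with earlier results of these data known. Named members were those called in any comparison, the 5 smallest p-values in each direction of the guide comparisons, the highest level per length in each family, those nearest the limit of 200 reads, and those moved by over 0.5 (log2) by HIRA 6 months replicate 5. Promoters are from RefSeq (GRCm38.p6), and 44 of 51 members matched. Shared sequence was counted as 50-base windows of the GRCm38 annotation's exons.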

Additional observations from a re-analysis of the deposited data

Results flagged for a closer look

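In each group of 5 libraries, the highest or lowest value of a member was compared with the rest by its gap to the nearest library divided by the group's range on the log2 CPM scale, and 8 of 204 groups were past the critical value of 0.71. Chance flags about 1 in 20 groups. In HIRA 6 months, replicate 5 was the lowest for Sult2a2 (0.921), Sult2a5 (0.902) and Sult2a1 (0.885), the same library whose sex-linked counts went against its label. The other gaps were single: Ugt1a7c was lowest in HIRA 6 months replicate 3 (0.819), Sult1e1, the oestrogen sulfotransferase, highest in HIRA 3 weeks replicate 5 (0.815), Sult3a2 highest in Rosa26 6 months replicate 1 (0.722), and Sult1c2 lowest in HIRA 3 weeks replicate 3 (0.739). Gstp3 was highest in Rosa26 6 months replicate 4 (0.827), the library whose omission ends the 6-month call of Gstp3.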

How the results depend on the processing

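No member called in a comparison changed direction in it under another setting. Each count of members called is followed by the share of all tested genes called in the same fit. At 3 weeks, against 1 member (0.197%), DESeq2 called 3 (Gsta4, Gsta1 and Gstt2; 0.997%), FPKM with limma 0 (0.114%), a fit of only the groups compared 4 (0.734%), and leaving out single libraries gave 0 to 1. At 6 months, against 3 (1.31%), the stricter filter filterByExpr gave 5 (3.05%), DESeq2 7 (3.91%), FPKM with limma 1 (Sult3a1; 0.949%), only the groups compared 0 (0%), and single omissions 0 to 5: 0 without Rosa26 6 months replicate 4 (0.216%), 1 without its replicate 1 (0.458%) or 5 (0.811%), and 5 without HIRA 6 months replicate 2 (1.21%). Chosen after seeing the data, leaving out HIRA 6 months replicates 3 and 5 gave 1 (0.712%), and DESeq2 without replicate 5 gave 7 (5.07%). Between the Rosa26 times, against 0 (0.324%), filterByExpr gave 1 (0.993%), DESeq2 3 (2.23%), only the groups compared 5 (Sult2a1 to Sult2a5; 0.718%), and single omissions 0 to 5, with 5 without HIRA 6 months replicate 5 (0.938%); both counts of 5 include Sult2a4, a member only through its reads in Rosa26 6 months. Between the HIRA times, against 0 (0.0656%), no filter gave 1 (0.0921%), DESeq2 2 (0.617%), single omissions 0 to 1, leaving out replicates 3 and 5 gave 1 (0.111%), replicates 1 and 5 gave 1 (0.0891%), and DESeq2 without replicate 5 gave 5 (0.837%). The change of the guide effect stayed at 0 members in all settings run. The cause of these moves was not tested. Counts were the same with RLE size factors or robust dispersion at 3 weeks and 6 months.

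Whether libraries with the same replicate number share more than a label is not known. With a replicate block, 2 members were called at 3 weeks (Gsta4 and Gsta2; 0.236% of all genes), 5 at 6 months (1.42%), 0 for the change (0%) and between the Rosa26 times (0.66%), and 1 between the HIRA times (Sult3a1; 0.162%). With the block and without HIRA 6 months replicate 5, 3 were called at 6 months (1.92%) and 3 between the HIRA times (0.291%).

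Depth limits the lowest members, since at these depths 3 reads correspond to 0.152 CPM in HIRA 6 months replicate 5. That floor covers counting error only, whereas the SE also takes in the spread between libraries.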
